A study of Mus musculus with 21 samples.

Results

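The tRNA pools of cerebellum and cerebrum were compared in mice carrying a Polr3a mutation. The comparison holds 9 of the 21 libraries of the study, 5 from mutant cerebellum and 4 from mutant cerebrum, and the 204 tRNAs that both regional count tables list, out of 213 listed in either. Of the 204, 182 are nuclear isodecoders and 22 are mitochondrial tRNAs, and a bacterial spike-in was left out. The question put to the data was how the pools of the 2 brain regions differ when RNA polymerase III is impaired, and the 12 wildtype libraries are given beside them.

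All mice were C57BL/6J, fed ad libitum and given tamoxifen, wildtype mice included. Recombination was induced with tamoxifen at postnatal day 28, and the tissue was frozen at postnatal day 42. The groups were Polr3a mutant cerebrum with 4 libraries, Polr3a mutant cerebellum with 5, wildtype cerebrum with 6 and wildtype cerebellum with 6, each with both sexes. The sources used here do not give the promoter or cell type that drives recombination, nor the nature of the mutant allele. Whether each library came from its own animal is not in the labels, and the p-values therefore cover the spread from library to library, which may be technical. Libraries of cerebrum and cerebellum with the same genotype and number have the same sex and may share an animal. The main tests treat all libraries as independent. Neither Polr3a mRNA nor mRNA markers of cell types are read by a tRNA library, so the mutation and the dissection could not be checked in these counts. In bulk tissue, fewer cells of a type and less RNA per cell cannot be told apart, and region cannot be told apart from any difference in how the libraries of each region were made.

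RNA polymerase III transcribes the nuclear tRNA genes, and POLR3A is its largest subunit. Nuclear tRNAs that share an anticodon but differ elsewhere in sequence are called isodecoders, and their genes are expressed to different degrees in different tissues. Mitochondrial tRNAs are copied by another polymerase from both strands of the mitochondrial genome as long transcripts, and the single tRNAs are then cut out.

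The sequences below are 7 mitochondrial tRNA genes, shown because mt-Tf and mt-Tv, mt-Th and mt-Tl2, and mt-Ta and mt-Tn lie near each other on a strand and differed between the regions in opposite directions relative to the bulk of tRNAs; mt-Ts2 lies between mt-Th and mt-Tl2. They are from the mm10 genome with GENCODE M21 gene positions, written 5′ to 3′ on the strand of the gene. Capitals mark the anticodon bases, taken as the copy nearest a set fraction of the gene length. In mt-Ts2 the bases GCT occur more than once, and the marked copy is likely not the anticodon. An earlier copy lies between stretches that can largely pair with each other, as around an anticodon loop, and the marked copy overlaps such a stretch. On the plus strand, mt-Tf lies at chrM:1-68 and mt-Tv at chrM:1025-1093, on either side of the small ribosomal RNA gene. Further along that strand, mt-Th lies at chrM:11546-11612, mt-Ts2 at chrM:11613-11671 and mt-Tl2 at chrM:11671-11741. On the minus strand, mt-Ta lies at chrM:5018-5086 and mt-Tn at chrM:5089-5159.
mt-Tf: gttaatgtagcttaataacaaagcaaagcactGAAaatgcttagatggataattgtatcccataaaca
mt-Tv: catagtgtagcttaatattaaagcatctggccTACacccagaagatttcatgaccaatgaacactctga
mt-Th: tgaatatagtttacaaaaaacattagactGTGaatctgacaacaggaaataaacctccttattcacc
mt-Ts2: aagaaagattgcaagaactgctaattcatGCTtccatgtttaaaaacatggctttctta
mt-Tl2: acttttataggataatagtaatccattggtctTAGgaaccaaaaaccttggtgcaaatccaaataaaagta
mt-Ta: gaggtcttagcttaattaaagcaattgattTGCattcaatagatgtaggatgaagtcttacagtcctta
mt-Tn: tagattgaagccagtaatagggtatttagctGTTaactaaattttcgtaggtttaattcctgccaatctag

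The mutant cerebrum libraries held 4830347 to 7588804 counts over the shared tRNAs and the mutant cerebellum libraries 2146688 to 7110175. Cerebellum mutant 1 was the shallow one. The first principal component held 67.5% of the variance and separated the regions. On it, cerebrum mutant 1 stood at −10.3 against −6.46 to −5.17 in the other mutant cerebrum libraries, and cerebellum mutant 5 at 2.69 against 5.99 to 6.80 in the others. The scaling factor (trimmed mean of M values, TMM) was 0.7097 in cerebrum mutant 1, 0.864 to 0.977 in the other mutant cerebrum libraries and 1.04 to 1.12 in mutant cerebellum. These 3 libraries were left out in pairs below.

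Levels are given as CPM, counts scaled by TMM to a common library size, with libraries in the order of their replicate numbers, which carry no ranking. A difference is the log2 fold change of cerebellum over cerebrum with its standard error, from edgeR's quasi-likelihood test over all 21 libraries, and it passed the test at a Benjamini-Hochberg adjusted p under 0.05. Among mutants, 148 of 204 tRNAs (72.5%) passed, 73 (35.8%) higher and 75 (36.8%) lower in cerebellum. Of these, 26 were at least 2-fold higher and 19 at least 2-fold lower. The ranges of the 2 groups did not overlap for 98 tRNAs (48%), with all cerebellum libraries above for 47 (23%) and below for 51 (25%). With cerebrum mutant 1 and cerebellum mutant 5 left out, 146 tRNAs passed (72 higher, 74 lower), and with cerebellum mutants 1 and 5 left out 150 passed (73 higher, 77 lower).

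The direction of a call depends on what the counts are scaled to. Scaling to library totals moved the median of all differences by 0.33 and gave 96 higher and 50 lower. Scaling to the spike-in moved it by −1.08 and gave 9 higher and 141 lower. Of the 148 calls above, 84 then passed with the same sign and 14 passed with the opposite sign. The rest no longer passed, and how many of those turned sign was not counted. The spike-in made up 0.275% to 0.374% of counts in mutant cerebrum and 0.673% to 1.08% in mutant cerebellum. The sources used here do not state how much was added or when, so less tRNA per tissue and more spike-in per library cannot be told apart. Directions below are relative to the bulk of tRNAs, and the median of each group under spike-in scaling stands beside its median.

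Histidine tRNAs differed most. Histidine is decoded by a single nuclear anticodon, GTG, and all 3 of its isodecoders were higher in mutant cerebellum, with a median of 2.69 (1.60 under spike-in scaling). His-GTG-1-1 stood at 2.04, 6.83, 4.66 and 4.50 CPM in the cerebrum mutants and at 86.7, 79.5, 86.1, 75.2 and 50.3 CPM in the cerebellum mutants. No cerebrum library came near any cerebellum library, the lowest of which was cerebellum mutant 5. The log2 difference was 4.05 ± 0.33 (adjusted p = 1.47e-10, edgeR), a fitted fold of 16.5. The cerebrum values rest on few reads, 11 to 40 per library. His-GTG-2, which supplies nearly all histidine tRNA reads, stood at 692, 889, 1186 and 1115 CPM in cerebrum and at 3323, 3641, 3445, 4702 and 3162 CPM in cerebellum. It was 3.77-fold higher in cerebellum, with a log2 difference of 1.91 ± 0.17 (adjusted p = 5.02e-10, edgeR) and no overlap. His-GTG-3-1 averaged 3.60 ± 1.41 CPM in cerebrum and 22.99 ± 5.68 CPM in cerebellum (SD), a log2 difference of 2.69 ± 0.29. The whole histidine pool held 0.0859% ± 0.0291 of all tRNA counts in cerebrum (SD, n = 4) and 0.403% ± 0.0780 in cerebellum (SD, n = 5). Within it the His-GTG-1-1 share was 0.461% ± 0.205 in cerebrum and 2.04% ± 0.460 in cerebellum.

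**Figure D1:**
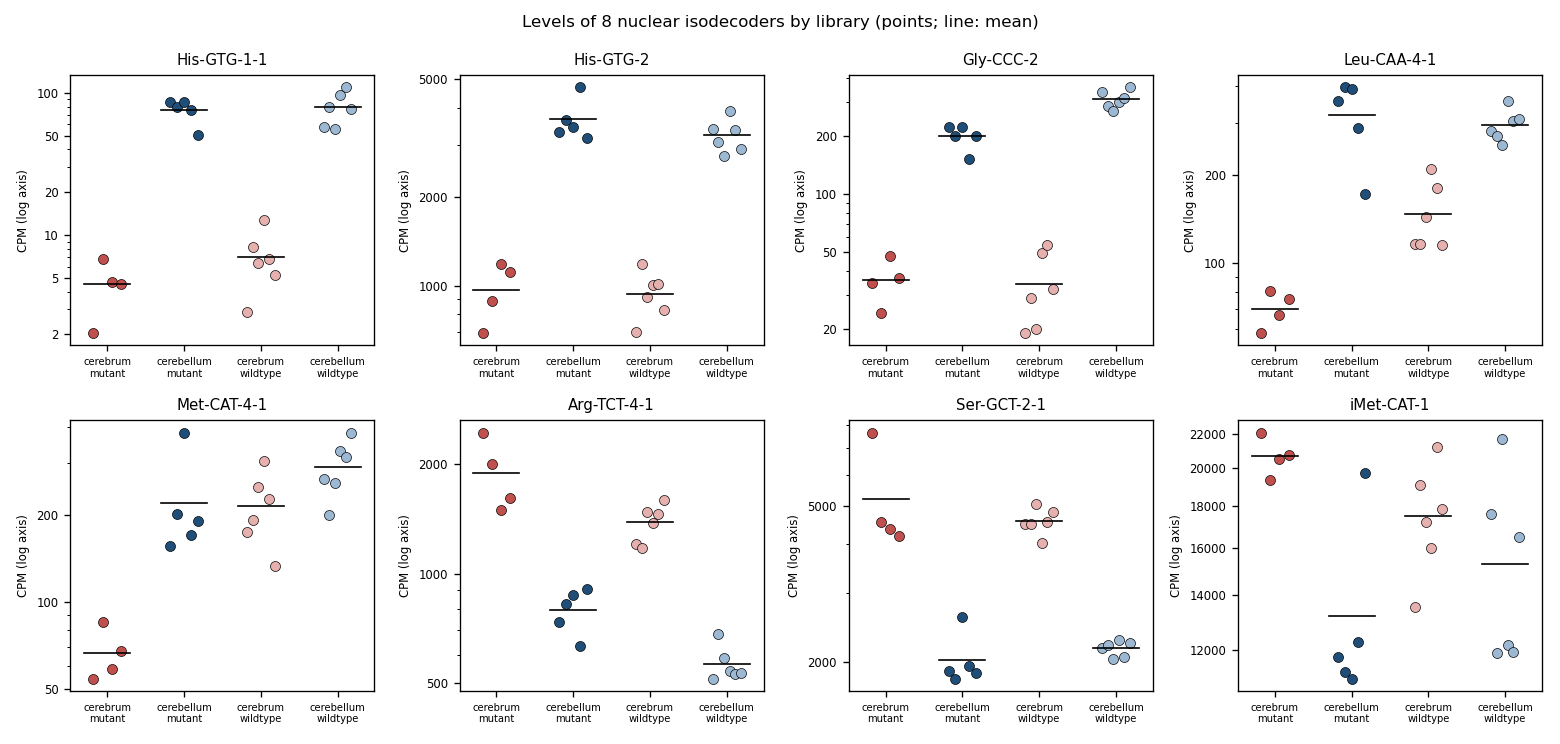
TMM-scaled CPM (log axis) of 8 nuclear isodecoders in each library of the 4 groups, with a line at each group mean. His-GTG-1-1 and Gly-CCC-2 separate the regions in both genotypes, while the cerebrum mutants lie below the cerebrum wildtypes for Leu-CAA-4-1 and Met-CAT-4-1, and 1 cerebellum mutant reaches the cerebrum level for iMet-CAT-1.

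Glycine, valine, alanine and leucine tRNAs were mostly higher as well. For glycine, 7 of 9 isodecoders were higher in mutant cerebellum and 0 lower, with a median of 0.82 (−0.31 under spike-in scaling). Gly-CCC-2 stood at 34.7, 24.3, 47.9 and 36.7 CPM in cerebrum and at 225, 200.0, 224, 153 and 200.4 CPM in cerebellum, without overlap. Its log2 difference was 2.48 ± 0.25 (adjusted p = 5.34e-09, edgeR). Gly-CCC-2 is a minor member of its anticodon, 0.281% ± 0.0542 of Gly-CCC reads in cerebrum and 1.42% ± 0.257 in cerebellum, and the main member Gly-CCC-1 had a log2 difference of 0.15 that did not pass (adjusted p = 0.236, edgeR).

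Of 11 valine isodecoders 9 were higher and 0 lower, with a median of 0.82 (−0.28 under spike-in scaling). Val-CAC-1-1 stood at 153, 191, 152 and 149.5 CPM in cerebrum and at 616, 544, 604, 511 and 299.8 CPM in cerebellum, a log2 difference of 1.67 ± 0.18 (adjusted p = 1.19e-08, edgeR). Cerebrum mutant 2 was the highest of the cerebrum libraries, and cerebellum mutant 5, the lowest of the cerebellum libraries, still lay above it. Under spike-in scaling the difference was 0.54 and did not pass. The valine pool held 0.990% ± 0.257 of all tRNA counts in cerebrum (SD, n = 4) and 1.90% ± 0.199 in cerebellum (SD, n = 5).

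Of 20 alanine isodecoders 13 were higher and 1 lower, with a median of 0.60 (−0.54 under spike-in scaling). Ala-AGC-5 stood at 711, 895, 750.1 and 701 CPM in cerebrum and 2531, 2708, 2829.6, 2410.2 and 1796 CPM in cerebellum, a log2 difference of 1.68 ± 0.19 (adjusted p = 1.56e-08, edgeR). The most abundant member, Ala-AGC-4, was higher by 0.62 ± 0.14 on the log2 scale, and the value was −0.51 under spike-in scaling. Ala-AGC-1-1 had a log2 difference of 1.66 ± 0.20. Ala-AGC-10-1 differed by 2.06 ± 0.38 and Ala-CGC-4-1 by 1.83 ± 0.56, both rare, with at most 20.98 and 12.4 CPM in a mutant library. The ranges of Ala-CGC-4-1 overlapped between the regions. Under spike-in scaling Ala-AGC-1-1 (0.57) and Ala-CGC-4-1 (0.80) did not pass. Ala-TGC-7 was the exception in this amino acid, averaging 83.00 ± 9.47 CPM in cerebrum and 35.8 ± 14.6 CPM in cerebellum (SD), a log2 difference of −1.20 ± 0.29 (adjusted p = 6.23e-04, edgeR). The alanine pool as a whole held 3.92% ± 0.866 of all tRNA counts in cerebrum (SD, n = 4) and 7.46% ± 1.33 in cerebellum (SD, n = 5).

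For leucine, 13 of 16 isodecoders were higher and 1 lower, with a median of 0.70 (−0.42 under spike-in scaling). Leu-CAA genes carry an intron that must be spliced out of the transcript. Leu-CAA-4-1 stood at 57.9, 80.3, 66.5 and 75.8 CPM in cerebrum and at 355, 396, 389.6, 287 and 171 CPM in cerebellum. Every cerebellum library lay above every cerebrum library, with cerebellum mutant 5 the nearest to cerebrum. The log2 difference was 2.19 ± 0.22 (adjusted p = 5.34e-09, edgeR). The other 3 Leu-CAA isodecoders were higher too, by 1.25, 0.76 and 0.40 on the log2 scale for Leu-CAA-1-1, Leu-CAA-2-1 and Leu-CAA-3-1, while Leu-TAA-1-1 was lower, at −0.50.

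Isoleucine is read by a pair of nuclear anticodons. All 3 Ile-AAT isodecoders were higher in mutant cerebellum, with a median of 1.46 (0.34 under spike-in scaling). The 2 Ile-TAT isodecoders, which carry introns, did not pass, with differences of 0.15 ± 0.18 for Ile-TAT-1-1 (adjusted p = 0.459, edgeR) and 0.29 ± 0.18 for Ile-TAT-2 (adjusted p = 0.141, edgeR). Summed over the anticodon, Ile-AAT was at 0.91 ± 0.18 (adjusted p = 6.41e-05, edgeR) and Ile-TAT at 0.34 ± 0.17 (adjusted p = 0.0555, edgeR), and the difference between them was not tested. Tryptophan, read by 1 nuclear anticodon, had 3 of 4 isodecoders higher and a median of 1.04 (−0.09 under spike-in scaling).

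**Figure D2:**
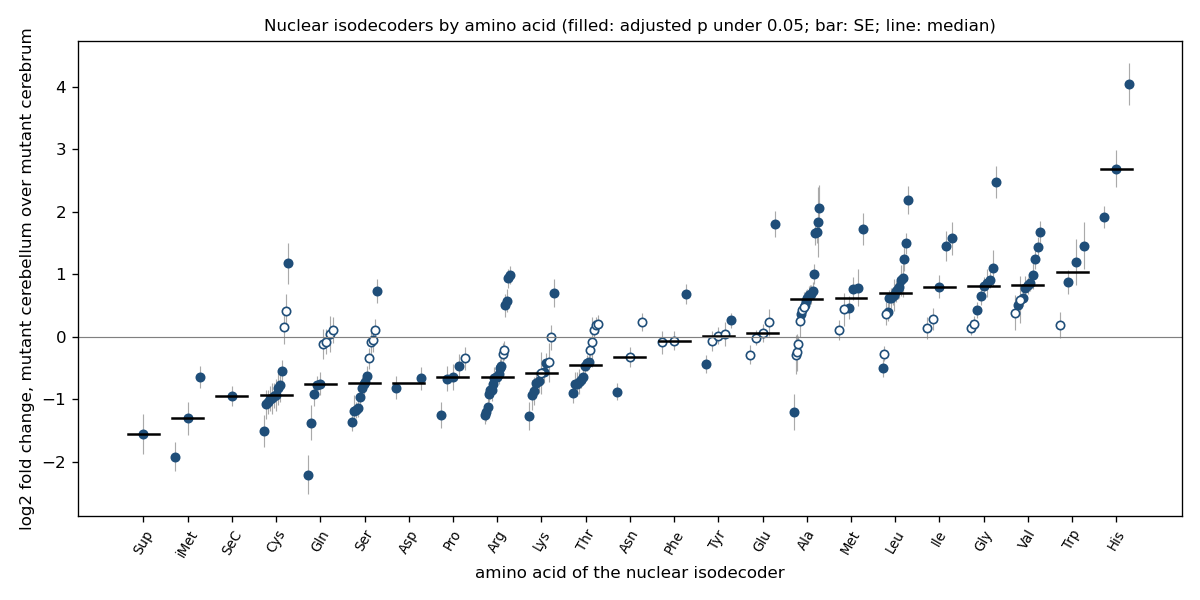
Log2 fold change of mutant cerebellum over mutant cerebrum for each of the 182 nuclear isodecoders (y axis), grouped by amino acid (x axis), with the SE as a bar, filled points for adjusted p under 0.05 and a line at the group median. The medians run from −1.55 for the suppressor tRNA and −1.30 for initiator methionine to 2.69 for histidine.

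Methionine has tRNAs of separate roles. The initiator tRNA starts translation on cytosolic ribosomes, and the elongator tRNA supplies methionine inside the chain. All 3 initiator isodecoders were lower in mutant cerebellum, with a median of −1.30 (−2.31 under spike-in scaling). iMet-CAT-1, which holds nearly all initiator reads, stood at 22106, 19339.9, 20532 and 20753 CPM in cerebrum and at 11776, 11285, 11070.4, 12264 and 19716 CPM in cerebellum. Cerebellum mutants 1 to 4 lay far below the cerebrum range, and cerebellum mutant 5 lay inside it. The log2 difference was −0.65 ± 0.18 (adjusted p = 0.00182, edgeR), and its call was lost under library totals (−0.33). iMet-CAT-2-1 averaged 132 ± 2.68 CPM in cerebrum and 34.5 ± 15.03 CPM in cerebellum (SD), a log2 difference of −1.92 ± 0.23. iMet-CAT-3-1 averaged 336 ± 20.6 and 136 ± 66.00 CPM (SD), a log2 difference of −1.30 ± 0.26. In both minor initiators the highest cerebellum library was again mutant 5, and the ranges did not overlap. Of the 6 elongator isodecoders 4 were higher and 0 lower, with a median of 0.62 (−0.54 under spike-in scaling). Met-CAT-1, which holds most elongator reads, averaged 16879.9 ± 2525 CPM in cerebrum and 18315 ± 4675 CPM in cerebellum (SD) and did not pass, at 0.12 ± 0.16 (adjusted p = 0.520, edgeR). Met-CAT-4-1, a rare elongator, stood at 54.4, 85.1, 58.7 and 67.7 CPM in cerebrum and 156, 200.2, 383, 170.4 and 190.1 CPM in cerebellum, with cerebellum mutant 3 the highest. Its log2 difference was 1.73 ± 0.25 (adjusted p = 1.12e-06, edgeR).

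Serine tRNAs, which carry a long variable arm, were mostly lower in mutant cerebellum: 9 of 14 isodecoders were lower and 1 higher, with a median of −0.74 (−1.80 under spike-in scaling). Ser-GCT-2-1 stood at 7666, 4550.5, 4375 and 4182 CPM in cerebrum and at 1904, 1818, 2606, 1964 and 1880.3 CPM in cerebellum. Cerebrum mutant 1 was far above the other cerebrum libraries, which themselves did not overlap with cerebellum. The log2 difference was −1.35 ± 0.15 (adjusted p = 1.19e-08, edgeR), a level 2.55-fold lower in cerebellum. Ser-TGA-1-1, among the 10 most abundant tRNAs, averaged 43829 ± 7816 CPM in cerebrum and 19469.5 ± 2895 CPM in cerebellum (SD), a log2 difference of −1.17 ± 0.13. Ser-GCT-1-1 went the other way, at 0.73 ± 0.19 (adjusted p = 0.00126, edgeR). The selenocysteine tRNA, SeC-TCA-1-1, inserts the rare amino acid of the selenoproteins at UGA codons. It stood at 3233, 2195, 2495 and 2695 CPM in cerebrum and 1307, 1229, 1215, 1237 and 1929 CPM in cerebellum, lower in cerebellum, at −0.94 ± 0.16 on the log2 scale (adjusted p = 9.52e-06, edgeR) with no overlap. Leucine, serine and selenocysteine tRNAs share the long variable arm, and over the 31 tRNAs of these 3 groups 14 were higher and 11 lower.

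Arginine tRNAs were lower for 13 of 19 isodecoders and higher for 4, with a median of −0.64 (−1.68 under spike-in scaling). Arg-TCT-4-1 is known as a neuron-enriched isodecoder of the central nervous system. It stood at 2440.5, 2009, 1493 and 1610.3 CPM in the cerebrum mutants and at 739, 824, 874, 634 and 909 CPM in the cerebellum mutants. The ranges did not overlap, and cerebrum mutant 1 was the highest. The log2 difference was −1.25 ± 0.15 (adjusted p = 3.06e-08, edgeR), 2.37-fold lower in cerebellum. The Arg-TCT-4-1 share of all Arg-TCT reads was 20.7, 24.1, 20.2 and 21.6% in the cerebrum mutants and 11.9, 15.8, 14.7, 11.9 and 11.5% in the cerebellum mutants. The difference of −8.46 percentage points (SE 1.23) passed an exact two-sided permutation test over all splits of 4 and 5 libraries, with an adjusted p of 0.0317 over 8 measures of the pool. The other 4 Arg-TCT isodecoders were not alike. Arg-TCT-2-1 and Arg-TCT-3-1 were lower, at −0.47 and −0.65 on the log2 scale, Arg-TCT-1-1 had a difference of −0.27 that did not pass (adjusted p = 0.143, edgeR), and Arg-TCT-5-1 was higher by 0.58 (−0.46 under spike-in scaling). The call for Arg-TCT-2-1 was lost without cerebrum mutant 1 (adjusted p = 0.129, edgeR) or without cerebellum mutant 4 (adjusted p = 0.0507, edgeR).

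Arg-ACG-1, the arginine isodecoder with the highest share of counts in mutant cerebrum, stood at 31099.6, 22952, 18916 and 22017 CPM in cerebrum and 9815, 8957, 11157, 9499 and 12047 CPM in cerebellum, a log2 difference of −1.21 ± 0.13 (adjusted p = 1.18e-08, edgeR). Arg-TCG-3, which led in mutant cerebellum, averaged 21496 ± 4272 CPM in cerebrum and 12778 ± 1519.9 CPM in cerebellum (SD), a log2 difference of −0.75 ± 0.12 (adjusted p = 7.59e-06, edgeR). Arg-CCT was divided: Arg-CCT-4-1 and Arg-CCT-2 were lower, at −1.12 and −0.85 on the log2 scale, and Arg-CCT-1-1 and Arg-CCT-3-1 were higher by 0.94 and 0.99. Such division was not the rule. Of 42 nuclear anticodons with more than 1 isodecoder, 8 held calls in both directions, 16 only higher, 16 only lower and 2 none. Some of the 42 had only 1 call or none, as for Asn-GTT and Ile-TAT, and so could not be divided.

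Cysteine, glutamine, lysine, proline and threonine tRNAs were also mostly lower. For cysteine 10 of 13 isodecoders were lower and 1 higher, with a median of −0.93 (−1.93 under spike-in scaling). Cys-GCA-10-1 averaged 14.5 ± 0.757 CPM in cerebrum and 4.90 ± 1.72 CPM in cerebellum (SD), a log2 difference of −1.50 ± 0.25 (adjusted p = 8.71e-06, edgeR). Cysteine isodecoders are rare here, 0.0697% of counts in cerebrum. How a read matching more than 1 similar isodecoder was counted is unknown here, so values of single isodecoders of one anticodon are uncertain to that extent.

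For glutamine 5 of 9 were lower and 0 higher, with a median of −0.75 (−1.77 under spike-in scaling). Gln-TTG-5-1 had the lowest log2 difference of all 204 tRNAs, −2.20 ± 0.31 (adjusted p = 7.38e-07, edgeR), at 21.9, 11.4, 8.90 and 7.87 CPM in cerebrum and 3.15, 2.41, 3.59, 2.26 and 2.42 CPM in cerebellum, where it had 7 to 20 reads per library. Gln-CTG-2, which carries most glutamine reads, averaged 79846 ± 18796 CPM in cerebrum and 46707 ± 6285 CPM in cerebellum (SD), a log2 difference of −0.77 ± 0.15 with ranges that just overlapped. Gln-CTG-4-1 differed by −1.37 ± 0.27, and here cerebellum mutant 5 lay inside the cerebrum range.

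Lysine was lower for 7 of 11 isodecoders and higher for 1, with a median of −0.58 (−1.62 under spike-in scaling). Proline was lower for 4 of 5 and threonine for 9 of 14, with 0 higher in either, and medians of −0.65 and −0.44 (−1.66 and −1.54 under spike-in scaling). Pro-TGG-3-1 averaged 177 ± 61.5 CPM in cerebrum and 74.5 ± 10.95 CPM in cerebellum (SD), a log2 difference of −1.25 ± 0.21. Lys-CTT-6-1, a rare isodecoder, had a log2 difference of −1.27 ± 0.22.

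Several of the most abundant tRNAs in the mutant libraries were lower in cerebellum. Asn-GTT-3, the leading tRNA of both regions, stood at 151414, 113974, 97293 and 106977 CPM in cerebrum and 58631, 62253, 82919, 58075 and 57904 CPM in cerebellum, a log2 difference of −0.88 ± 0.14 (adjusted p = 3.30e-06, edgeR). Lys-TTT-1 differed by −0.71 ± 0.18, with cerebellum mutant 5 inside the cerebrum range, Asp-GTC-1 by −0.66 ± 0.18 and Ser-GCT-3-1 by −0.71 ± 0.15. For Asp-GTC-1 and Ser-GCT-3-1 cerebrum mutant 1 was the highest library, at 121761 and 40549.8 CPM, and without that library the log2 differences were −0.33 and −0.51 and still passed. The call for Asp-GTC-1 was lost under library totals (−0.29). Glu-CTC-1 averaged 31367 ± 2413 CPM in cerebrum and 31102 ± 2161 CPM in cerebellum (SD), with a difference of −0.01 ± 0.12 (adjusted p = 0.927, edgeR). Phe-GAA-1 also did not pass, at −0.06 ± 0.15 (adjusted p = 0.749, edgeR). Among the less abundant glutamate isodecoders, Glu-TTC-3 was higher by 1.81 ± 0.21 (adjusted p = 1.60e-08, edgeR).

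Reads were also summed over isodecoders of an anticodon, nuclear and mitochondrial apart. Of 72 anticodons 58 (80.6%) passed, 27 (37.5%) higher and 31 (43.1%) lower in mutant cerebellum. Under library totals the split was 31 higher and 22 lower, and under spike-in scaling 1 and 57. The highest were His-GTG at 2.04 ± 0.18 on the log2 scale (adjusted p = 3.79e-11, edgeR), mitochondrial His-GTG at 1.36 ± 0.14, mitochondrial Ala-TGC at 1.35 ± 0.15, Val-AAC at 1.26 ± 0.16, mitochondrial Glu-TTC at 1.26 ± 0.15 and Gly-ACC at 1.20 ± 0.29. Under spike-in scaling the Gly-ACC difference was −0.00334. The lowest were Sup-TCA at −1.47 ± 0.35, Ser-TGA at −1.06 ± 0.13, Ser-CGA at −1.02 ± 0.14, mitochondrial Gln-TTG at −0.96 ± 0.19, mitochondrial Val-TAC at −0.89 ± 0.15 and Arg-ACG at −0.88 ± 0.12. Histidine thus stood at the top of both the nuclear and the mitochondrial anticodons.

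Among the 22 mitochondrial tRNAs, 8 were higher, 7 lower and 7 did not pass, with a median of −0.03 (−1.11 under spike-in scaling). Over all tRNAs 35.8% were higher and 36.8% lower. Of the 8 minus-strand tRNAs 5 were higher and 2 lower, and of the 14 plus-strand tRNAs 3 were higher and 5 lower; the difference between these counts was not tested. Among plus-strand tRNAs, 1 of the 6 before Cox1 was higher and 3 were lower, and of the 8 after it 2 were higher and 2 lower. On the minus strand, mt-Ta (Ala-TGC-MT) stood at 1688, 1735, 1943 and 2017 CPM in cerebrum and 5986, 3900.2, 4277, 4449 and 3438 CPM in cerebellum, a log2 difference of 1.26 ± 0.16 (adjusted p = 7.22e-08, edgeR). Its neighbour mt-Tn (Asn-GTT-MT) stood at 5017, 3092, 3119 and 2832 CPM in cerebrum and 2260.2, 1477, 1347, 1809 and 2374 CPM in cerebellum, lower in cerebellum, at −0.92 ± 0.18 (adjusted p = 7.37e-05, edgeR). For both genes the ranges of the regions did not overlap. The glutamate tRNA mt-Te was higher by 1.17 ± 0.16 and the glutamine tRNA mt-Tq lower, at −1.05 ± 0.19. The minus-strand tRNAs for cysteine, tyrosine and serine (mt-Tc, mt-Ty and mt-Ts1) were higher by 0.47 ± 0.21, 0.49 ± 0.15 and 0.50 ± 0.15 (−0.63, −0.63 and −0.63 under spike-in scaling), all with overlapping ranges. With cerebellum mutants 1 and 5 left out, all 3 lost their call, at 0.05, 0.27 and 0.31. The proline tRNA mt-Tp, the remaining one of that strand, was at −0.01 ± 0.15 (adjusted p = 0.928, edgeR).

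On the plus strand, the phenylalanine tRNA mt-Tf stood at 12206, 14870.3, 12384 and 13862 CPM in cerebrum and 34100.2, 25322, 21821, 24065 and 25479 CPM in cerebellum, higher by 0.97 ± 0.15 (adjusted p = 3.30e-06, edgeR; −0.15 under spike-in scaling). The valine tRNA mt-Tv stood at 26440.3, 24294, 26004 and 27241 CPM in cerebrum and 18864, 9282, 11493, 10204 and 16395 CPM in cerebellum, lower in cerebellum, at −0.97 ± 0.17 (adjusted p = 9.58e-06, edgeR). Neither gene had overlapping ranges, and cerebellum mutants 1 and 5 were the highest cerebellum libraries for mt-Tv. The histidine tRNA mt-Th, higher by 1.27 ± 0.16, had cerebrum libraries that lay within 2358 to 2506 CPM and cerebellum libraries at 4828 to 7131 CPM. Next to it, mt-Ts2 was at 0.16 ± 0.15 (adjusted p = 0.342, edgeR) and mt-Tl2 was lower, at −0.73 ± 0.16 (adjusted p = 1.75e-04, edgeR). The threonine tRNA mt-Tt was higher by 0.73 ± 0.16 (−0.40 under spike-in scaling), and mt-Tw (tryptophan), mt-Td (aspartate) and mt-Tm (methionine) were lower, at −0.91 ± 0.17, −0.47 ± 0.15 and −0.46 ± 0.16. The leucine, isoleucine, lysine, glycine and arginine tRNAs mt-Tl1, mt-Ti, mt-Tk, mt-Tg and mt-Tr had differences of −0.25, −0.24, −0.23, −0.04 and 0.21 that did not pass. Under spike-in scaling the differences of mt-Ta, mt-Te and mt-Th were 0.12, 0.02 and 0.18 and did not pass.

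**Figure D3:**
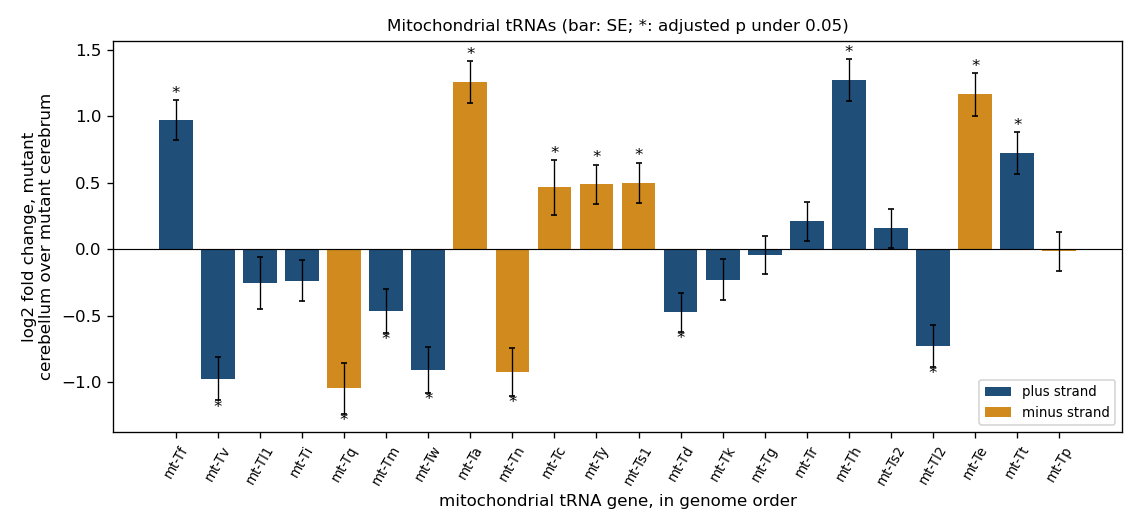
Log2 fold change of mutant cerebellum over mutant cerebrum for the 22 mitochondrial tRNAs in genome order (x axis), coloured by strand, with the SE as an error bar and a star for adjusted p under 0.05. The tallest bars are mt-Th at 1.27 and mt-Ta at 1.26, and the deepest is mt-Tq at −1.05.

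Ratios within a library do not depend on scaling. The log2 ratio of mt-Tf to mt-Tv reads was −1.12, −0.71, −1.07 and −0.97 in the cerebrum mutants and 0.85, 1.45, 0.92, 1.24 and 0.64 in the cerebellum mutants. For mt-Th to mt-Tl2 it was −1.28, −1.33, −1.52 and −1.33 in cerebrum and 0.62, 0.81, 0.84, 0.81 and 0.25 in cerebellum. For mt-Ta to mt-Tn it was −1.57, −0.83, −0.68 and −0.49 in cerebrum and 1.41, 1.40, 1.67, 1.30 and 0.53 in cerebellum. In each pair the ratio was negative in all 4 cerebrum mutants and positive in all 5 cerebellum mutants, so the member with fewer reads changed between regions. The 3 pairs were chosen after their values were seen and were not tested. In wildtype the means of the same ratios were −0.37, −1.12 and −0.90 in cerebrum and 0.85, 0.40 and 1.29 in cerebellum.

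Beyond single tRNAs, 8 measures of each pool were compared by exact two-sided permutation tests with Benjamini-Hochberg adjustment over the 8. The smallest p that 4 against 5 libraries allow is 0.0159. The effective number of nuclear tRNAs, the exponential of the Shannon entropy of their shares, tells how evenly reads are spread. It was 35.6, 41.1, 46.7 and 42.8 in the cerebrum mutants and 53.7, 54.5, 53.00, 53.7 and 46.5 in the cerebellum mutants, a difference of 10.7 (SE 2.72, adjusted p = 0.0423, exact permutation). Cerebrum mutant 3 and cerebellum mutant 5 overlapped, and the other libraries did not. The 10 most abundant nuclear tRNAs took 55.6, 52.6, 48.8 and 51.5% of nuclear reads in cerebrum and 44.8, 44.01, 45.03, 44.5 and 49.8% in cerebellum, a difference of −6.50 points (SE 1.76, adjusted p = 0.0423, exact permutation). Mutant cerebellum thus had the more even pool by both measures.

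The minus-strand share of mitochondrial reads was 21.3, 22.6, 21.6 and 23.1% in the cerebrum mutants and 28.03, 28.4, 26.2, 29.9 and 26.7% in the cerebellum mutants. It was higher in cerebellum by 5.68 points (SE 0.762, adjusted p = 0.0317, exact permutation) with no overlap. The mitochondrial share of all reads was 12.8, 14.03, 15.7 and 14.8% in cerebrum and 21.2, 15.00, 13.96, 16.4 and 19.3% in cerebellum. That difference, 2.83 points (SE 1.47), did not pass (adjusted p = 0.127, exact permutation), and cerebellum mutants 1 and 5 were the highest. The initiator share of nuclear methionine reads was 55.8, 43.2, 48.2 and 45.2% in cerebrum and 32.2, 27.2, 23.3, 31.4 and 53.8% in cerebellum. It too did not pass, at −14.5 points (SE 5.99, adjusted p = 0.0726, exact permutation). Without cerebellum mutant 5, which lay among the cerebrum libraries, the initiator difference was −19.6 points (adjusted p = 0.0327, exact permutation). Per spike-in count, log2 nuclear reads averaged 8.03 ± 0.189 in cerebrum and 6.56 ± 0.282 in cerebellum (SD), a difference of −1.47 (SE 0.16, adjusted p = 0.0317, exact permutation). Log2 mitochondrial reads per spike-in count averaged 5.45 ± 0.212 and 4.27 ± 0.397 (SD), a difference of −1.18 (SE 0.21, adjusted p = 0.0317, exact permutation).

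**Figure D4:**
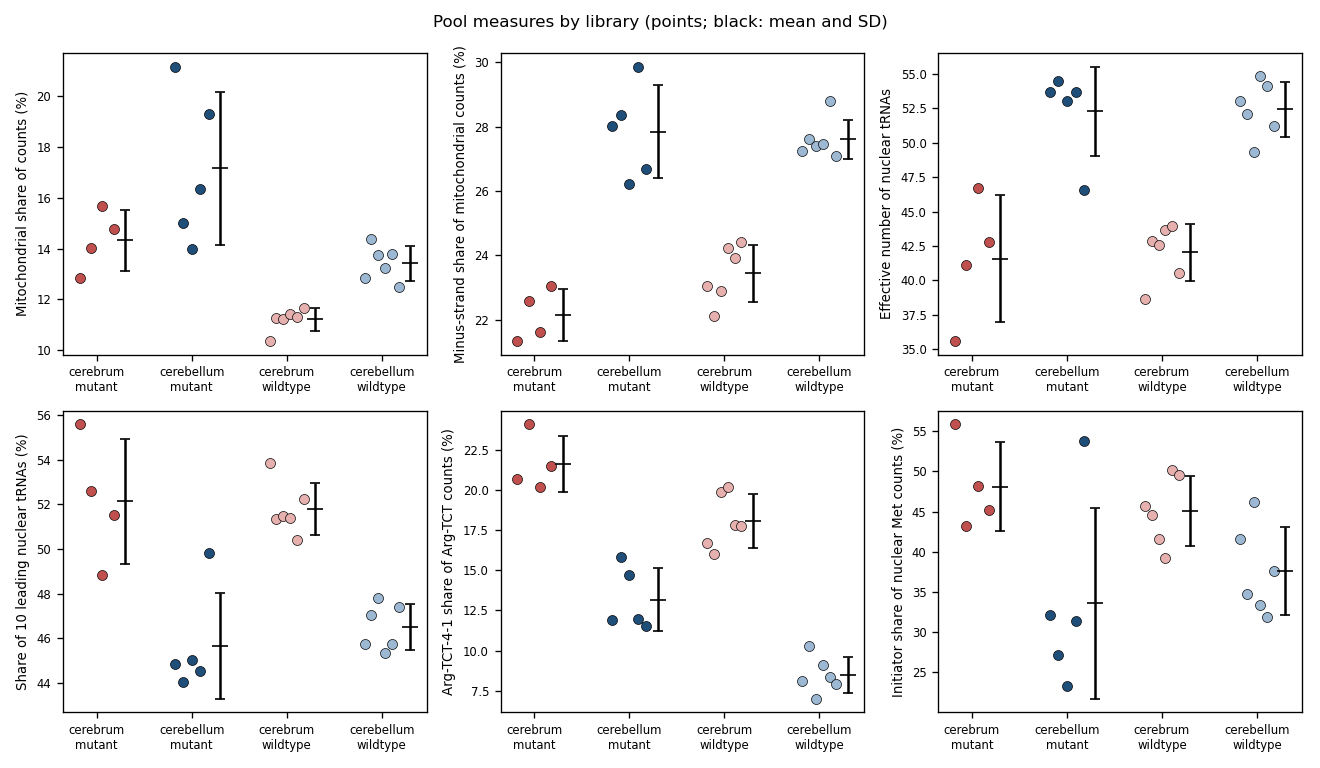
Pool measures by library (y axes, units on each) for the 4 groups, with the mean and SD in black. The minus-strand share and the Arg-TCT-4-1 share separate the regions in both genotypes, and cerebellum mutant 5 lies at the cerebrum level for the initiator share (53.8%).

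The same regional comparison in wildtype shares no library with the mutant one. There 145 of 204 tRNAs (71.1%) passed, 68 (33.3%) higher and 77 (37.7%) lower in cerebellum, and 54 of 72 anticodons (75%) passed, 26 (36.1%) higher and 28 (38.9%) lower. For the wildtype tRNAs library totals gave 85 higher and 55 lower, and spike-in scaling 6 and 138. Of the 145 tRNAs, 122 had passed in mutants with the same sign, which is 82.4% of the mutant calls and 84.1% of the wildtype calls, and 0 were called with opposite signs. Across the 204 tRNAs the mutant and wildtype differences had a Pearson r of 0.91 and a Spearman rho of 0.906, given as a description, since tRNAs are not independent replicates and all libraries share 1 fit. The leading members stood in wildtype at 7.01 CPM in cerebrum and 79.4 CPM in cerebellum for His-GTG-1-1, and at 1384 and 565 CPM for Arg-TCT-4-1. The difference between genotypes in the regional difference, tested as an interaction, did not pass for either, at 0.55 ± 0.41 (adjusted p = 0.589, edgeR) and 0.05 ± 0.19 (adjusted p = 0.934, edgeR). The mitochondrial share of reads, which did not pass in mutants, passed in wildtype, at 2.20 points (adjusted p = 0.00247, exact permutation). So did the initiator share of methionine reads, at −7.50 points (adjusted p = 0.0346, exact permutation). For the 8 pool measures the interaction had adjusted p-values of 0.788 to 0.899 by exact permutation of genotype within region.

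**Figure D5:**
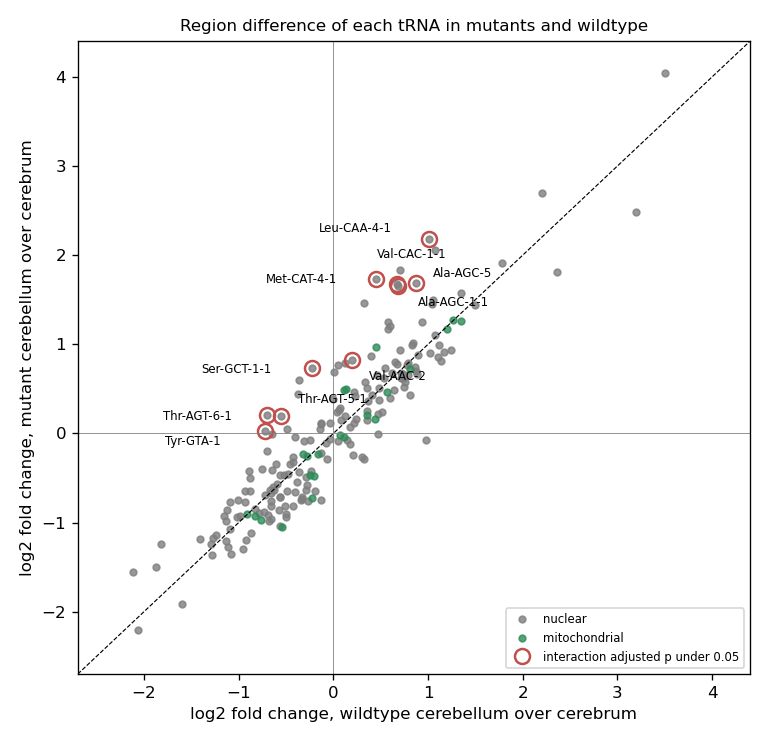
Log2 fold change of cerebellum over cerebrum in wildtype (x axis) and mutants (y axis) for the 204 tRNAs, with nuclear tRNAs in grey, mitochondrial tRNAs in green, the line of equal values dashed and interaction adjusted p under 0.05 ringed. All 10 ringed tRNAs lie above the dashed line.

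The interaction passed for 10 of 204 tRNAs (4.9%), all with a regional difference that was higher in mutants, and 30 had an unadjusted p under 0.05. They were Met-CAT-4-1 at 1.28 ± 0.32, Leu-CAA-4-1 at 1.18 ± 0.28, Val-CAC-1-1 at 1.01 ± 0.23, Ala-AGC-1-1 at 0.97 ± 0.25 and Ser-GCT-1-1 at 0.96 ± 0.25 on the log2 scale. The others were Thr-AGT-6-1 at 0.91 ± 0.20, Ala-AGC-5 at 0.81 ± 0.24, Thr-AGT-5-1 at 0.74 ± 0.16, Tyr-GTA-1 at 0.74 ± 0.18 and Val-AAC-2 at 0.63 ± 0.18. Their adjusted p-values ran from 0.00916 to 0.0437 (edgeR). The calls for Ala-AGC-5 and Val-AAC-2 were lost with sex as a covariate (adjusted p = 0.0523 for both, edgeR) and under library totals (adjusted p = 0.0616 and 0.103, edgeR). Under mitochondrial total scaling they were lost as well (adjusted p = 0.0777 and 0.131, edgeR), as was Ala-AGC-1-1 (adjusted p = 0.0541, edgeR). Ala-AGC-5 was also lost with limma-voom (adjusted p = 0.0609) and with nuclear tRNAs only (adjusted p = 0.0513, edgeR), and Val-AAC-2 without cerebrum mutant 1 and cerebellum mutant 5 (adjusted p = 0.0912, edgeR). Of the 10, 9 belong to the middle abundance tercile, which holds 61 of the 182 nuclear tRNAs, and the remaining one to the highest tercile. The median interaction was 0.15 in the lowest tercile, 0.08 in the middle and −0.09 in the highest. Counting error is larger for rare tRNAs, and whether the calls depend on abundance was not tested.

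In cerebrum the mutant mean lay below the wildtype mean for all 10, at 0.311 to 0.682 of it, and for 9 of them every mutant library lay below every wildtype library. In cerebellum the mutant mean was 0.674 to 1.14 of the wildtype mean, lower for 4 and higher for 6, and the ranges overlapped for all 10. These ratios and ranges were not tested apart from the interaction that selected the tRNAs. Selection in the same libraries itself favours mutant values that are low in cerebrum or high in cerebellum, relative to wildtype. How many of all tRNAs had every cerebrum mutant below every cerebrum wildtype was not counted. Whether the change lies in cerebrum was therefore not tested. Leu-CAA-4-1, 1 of the 10, averaged 147 ± 39.7 CPM in wildtype cerebrum and 295 ± 36.3 CPM in wildtype cerebellum (SD, n = 6). In the mutants it averaged 70.1 ± 9.95 and 319.6 ± 93.6 CPM. Tyr-GTA-1, the main tyrosine isodecoder, whose genes carry introns, stood at 12033, 16304, 10168 and 14846 CPM in the cerebrum mutants and 12925, 15275, 14536, 13429 and 11582 CPM in the cerebellum mutants. Those ranges overlapped, and the mutant difference of 0.02 ± 0.14 did not pass (adjusted p = 0.884, edgeR). In wildtype Tyr-GTA-1 averaged 19567 ± 2628 CPM in cerebrum and 11902 ± 919 CPM in cerebellum (SD), a log2 difference of −0.72 ± 0.12 (adjusted p = 5.25e-06, edgeR). Thr-AGT-5-1 and Thr-AGT-6-1 were alike in this, with mutant differences of 0.19 and 0.21 that did not pass and wildtype differences of −0.55 and −0.70 that did. Among anticodons the interaction passed for 1 of 72 (1.39%), Tyr-GTA, at 0.74 ± 0.18 (adjusted p = 0.0179, edgeR). Spike-in scaling ended all 10 calls, and the count was 13 (11 higher, 2 lower) with cerebrum mutant 1 and cerebellum mutant 5 left out, 27 (15 higher, 12 lower) with cerebellum mutants 1 and 5 left out and 21 without cerebellum mutant 5 alone.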

How the data were processed

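QuantM-tRNA-seq libraries, a small RNA method for mature tRNAs, were made from Trizol-extracted total RNA. Per the submitters' processing notes, the tools were Bowtie2, cutadapt, DESeq2 and featureCounts and the build was mm10, with no versions, order or settings named. For each region the authors deposited raw counts, whole numbers per tRNA and library that were not normalized. Rows in 1 table only (5 in cerebrum, 4 in cerebellum) and the spike-in were left out of library sizes and tests. Their own genotype comparisons were not used.

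TMM scaling, filterByExpr (minimum count 10, which kept all 204 tRNAs), robust quasi-likelihood fits and F tests used edgeR 4.0.16 and limma 3.58.1 in R 4.3.3, with 1 coefficient for each of the 4 groups and Benjamini-Hochberg adjustment. An SE is the size of the log2 fold change over the square root of F. In 20 simulated sets of the 204 tRNAs, 20 tRNAs were changed 1.5-fold and 20 were changed 2-fold, with random signs, in mutant cerebellum only. The mutant comparison recovered 66% of 1.5-fold and 95% of 2-fold changes, and 2.69% of calls were false. Far more tRNAs, 148, passed in the data, so these rates may not hold there and 2.69% is not the false share of those calls. All replicate pairs differed by more than sampling noise (chi-square per degree of freedom at least 46.7). The depth of 2146688 to 7588804 counts in the mutant libraries makes counting error small except for rare tRNAs: 24 of the 148 calls had a mean mutant count under 100. Wildtype libraries held 4353008 to 6171823 counts in cerebrum and 1612722 to 5323222 in cerebellum. Apart from wildtype 5 and mutant 1, every wildtype cerebellum library was shallower than every mutant one, so depth and genotype were largely not separated there. Anticodons were scaled separately.

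Alternatives were RLE, library total, mitochondrial total and spike-in scaling, limma-voom, DESeq2 1.42.0, omitting the filter or raising it to a mean count of 50, adding sex or a replicate block, nuclear rows only, mutant libraries only, all rows of each table and leaving out each library; leaving out the pairs of libraries was added after seeing the data. Members, lists and tests were chosen with earlier results of these data known. Named tRNAs were the 12 highest and 12 lowest passing, the 10 most abundant, all mitochondrial, initiator, selenocysteine, Arg-TCT, Ile-TAT and His-GTG rows, the 6 highest and 6 lowest anticodons and all passing the interaction; other members of lists were named after their values were seen. All 22 mitochondrial rows matched a GENCODE M21 gene that holds their anticodon. Isodecoder sequences and nuclear positions were not used here.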

Additional observations from a re-analysis of the deposited data

Results flagged for a closer look

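Of 152 groups of 4 or 5 mutant libraries tested for a library far from the rest (Dixon's ratio at the 95% level, which chance passes in about 1 in 20), 22 had one. Cerebrum mutant 1 accounted for 8, cerebellum mutant 5 for 8, cerebellum mutant 3 for 4, and cerebrum mutants 2 and 4 for 1 each. These values share libraries and are not independent.

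Cerebellum mutant 5 lay toward the cerebrum libraries in all 8 cases. Its effective number of nuclear tRNAs was 46.5 (next 53.00), and its 10 leading nuclear tRNAs took 49.8% of nuclear reads (next 45.03%). It was high for the initiators, at 19716 CPM for iMet-CAT-1 (next 12264), 60.9 for iMet-CAT-2-1 (next 31.8) and 252 for iMet-CAT-3-1 (next 122). It was also high for SeC-TCA-1-1 at 1929 CPM (next 1307) and Gln-CTG-4-1 at 77.7 CPM (next 32.1), and low for Ala-AGC-4 at 20488 CPM (next 29564).

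Cerebellum mutant 3 was high for His-GTG-3-1 at 32.6 CPM, Met-CAT-4-1 at 383, Ser-GCT-2-1 at 2606 and Asn-GTT-3 at 82919.

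Cerebrum mutant 1 was high for Asp-GTC-1 at 121761 CPM (next 59810.2), Ser-GCT-3-1 at 40549.8, Ser-GCT-2-1 at 7666, Arg-TCT-1-1 at 5068 and mt-Tn at 5017 CPM. It was low for Ala-AGC-4 at 16312, mt-Tt at 5229 and Ile-TAT-1-1 at 2328 CPM. Cerebrum mutant 2 was high for Val-CAC-1-1 at 191 CPM, and cerebrum mutant 4 for mt-Tl1 at 3343 CPM.

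The regional difference differed between genotypes by the edgeR interaction test for 10 tRNAs and 1 anticodon, with log2 values, mutant minus wildtype, of 0.97 for Ala-AGC-1-1, 0.81 for Ala-AGC-5, 1.18 for Leu-CAA-4-1, 1.28 for Met-CAT-4-1, 0.96 for Ser-GCT-1-1, 0.74 for Thr-AGT-5-1, 0.91 for Thr-AGT-6-1, 0.74 for Tyr-GTA-1, 0.63 for Val-AAC-2, 1.01 for Val-CAC-1-1 and 0.74 for the anticodon Tyr-GTA.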

How the results depend on the processing

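The count of mutant regional calls was 134 to 156 under the 14 alternatives run (134 where only the 182 nuclear tRNAs were tested), and within 136 to 153 when any of the 21 libraries was left out. The count of interaction calls, 10, was 0 under spike-in scaling, 17 with DESeq2, 27 without cerebellum mutants 1 and 5, and 7 to 21 when 1 library was left out (21 without cerebellum mutant 5, at most 14 without any other). Of its 10 tRNAs, 7 held whichever library was left out; Ala-AGC-5 was lost in 15 of 21 cases, Val-AAC-2 in 12 and Ser-GCT-1-1 without cerebrum mutant 3 or 4. Under library totals Glu-CTC-1 turned to 0.31, and the calls for iMet-CAT-1 (−0.33), Asp-GTC-1 (−0.29), mt-Td (−0.16), mt-Tm (−0.16), Arg-TCT-2-1 (−0.11) and Arg-TCT-3-1 (−0.30) were lost. Under spike-in scaling the sign turned for members that included Ala-AGC-4 (−0.51), mt-Tr (−0.89), mt-Tc (−0.63), mt-Tf (−0.15), mt-Ts1 (−0.63), mt-Ts2 (−0.93), mt-Tt (−0.40), mt-Ty (−0.63), Arg-TCT-5-1 (−0.46), Ile-TAT-1-1 (−0.98), Ile-TAT-2 (−0.86) and the anticodon Gly-ACC (−0.00334). The mt-Tc call was lost without cerebrum mutant 1, 2 or 3 or cerebellum mutant 1 or 5. The cause of these changes was not tested.

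Same-numbered libraries were not treated as pairs in the main tests. Correlations of their deviations were −0.176 to 0.256 over 4 mutant pairs and −0.0168 to 0.447 over 6 wildtype pairs. Of these, 0 and 4 correlated best with their own number. Sex was the same within every such pair, so the libraries of a pair may come from the same animal, which the labels do not state. With the replicate block there were 156 mutant calls and 28 interaction calls (17 higher, 11 lower). With mutants 1 to 4 compared as pairs in the block, the smallest p is 0.125, so no measure could pass; the differences were 5.97 points for the minus-strand share, −1.56 and −1.32 for log2 nuclear and mitochondrial reads per spike-in count, 12.1 for the effective number, −7.54 points for the 10 leading tRNAs and −8.04 points for Arg-TCT-4-1 (adjusted p = 0.143, exact sign-flip test).

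Leaving out 1 mutant library gave 5.18 to 6.09, −1.56 to −1.39, −1.32 to −1.05, 8.73 to 12.4, −7.61 to −5.35 and −9.12 to −7.63 for these 6 measures, and −19.6 to −11.9 points for the initiator share. Each of the 6 missed the threshold in 7 of 9 cases and passed without cerebrum mutant 3 and without cerebellum mutant 5. With 8 libraries the smallest exact p is 0.0286 (4 against 4) or 0.0357 (3 against 5) before adjustment. Depth limits only rare tRNAs: His-GTG-1-1 had 11 to 40 reads per cerebrum mutant library.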

Other observations

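Grouped by the first base of the anticodon, which pairs with the last codon base, nuclear tRNAs with A there were higher in mutant cerebellum for 19 of 34 and lower for 9, with C for 24 and 20 of 63, with G for 11 and 17 of 39, and with T for 11 and 22 of 46. Grouped by abundance, the lowest tercile held 16 higher and 22 lower of 60, the middle tercile 32 and 17 of 61, and the highest tercile 17 and 29 of 61. The 16 tRNAs of families with introns (Tyr-GTA, Leu-CAA, Ile-TAT and Arg-TCT) had 6 higher and 4 lower. Over all 204 tRNAs the counts were 73 and 75. Asparagine had 0 higher and 1 lower of 3, aspartate 0 and 2 of 2, glutamate 1 and 0 of 5, phenylalanine 1 and 0 of 3, and tyrosine 1 and 1 of 5. The suppressor tRNA Sup-TCA-1-1, a rare row, had 5.85 to 10.95 CPM in the cerebrum mutants and 2.01 to 3.77 CPM in the cerebellum mutants, a log2 difference of −1.55.

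The 9 tRNAs listed in 1 regional table only were rare: no mutant library held more than 49 reads of any of them.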
